A study of Mus musculus with 6 samples.

Results

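The genes described here are 10 members of the YAP/TEAD branch of Hippo signalling: the target genes Cyr61 (now Ccn1), Ctgf (now Ccn2), Ankrd1, Amotl2 and Lats2, the coactivator genes Yap1 and Wwtr1, and the transcription factor genes Tead1, Tead2 and Tead4. They were picked by the gene name printed in the array files, which gave 14 of 39429 gene probes. The set was proposed with differences between the genotypes on these same arrays already known, so every difference between knockout and wild type given for these 10 genes is a description and carries no test of its own.

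The study compared mouse embryonic stem (ES) cells carrying a Zscan5b knockout (3 arrays) with wild type mouse ES cells (3 arrays), and the design text calls the 3 samples of each genotype biological replicates. The Zscan5b product belongs to the zinc finger proteins that carry a SCAN domain. Both genotypes were grown undifferentiated in leukemia inhibitory factor at 1000 IU/ml on mouse embryonic fibroblast feeders that had been inactivated with mitomycin C at 10 ug/ml, and total RNA was hybridised to 1-colour Agilent arrays. The site of the deletion and the number of knockout clones are not given in the labels. Any feeder cells still present at harvest would contribute to the RNA.

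Hippo signalling is a kinase cascade that restrains growth when cells are crowded or under low tension. Its last kinases, Lats1 and Lats2, phosphorylate YAP (from Yap1) and TAZ (from Wwtr1) and keep them in the cytoplasm, whereas unphosphorylated YAP and TAZ enter the nucleus and activate genes by binding TEAD factors. Cyr61, Ctgf and Ankrd1 are widely used readouts of that activity, and Amotl2 and Lats2 are targets that feed back to restrain it. In the mouse embryo Tead4 is needed for the trophectoderm, the outer layer that forms the placenta.

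TEAD factors recognise GGAATG, read as CATTCC on the opposite strand. Promoter sequences from RefSeq (GRCm38.p6, 250 bases before to 50 bases after each annotated start) were found for 7 of the 10 genes, with 9 annotated starts, and not for Ctgf, Tead1 and Tead4. The motif was searched as GGAATG or CATTCC. It was present at 7 of the 9 starts, against 14.7% of all 32851 promoters of that length, and in 6 of the 7 genes. The 14.7% is counted per start, not per gene. The upstream 250 bases of 3 target genes are shown because, of the members with a promoter in the table, their signals differed most between the arrays, with the motif in capitals. They lie on the minus strand at chr3:145649986-145650235 for Cyr61, on the minus strand at chr19:36119845-36120094 for Ankrd1 and on the plus strand at chr9:102717554-102717803 for Amotl2.
Cyr61: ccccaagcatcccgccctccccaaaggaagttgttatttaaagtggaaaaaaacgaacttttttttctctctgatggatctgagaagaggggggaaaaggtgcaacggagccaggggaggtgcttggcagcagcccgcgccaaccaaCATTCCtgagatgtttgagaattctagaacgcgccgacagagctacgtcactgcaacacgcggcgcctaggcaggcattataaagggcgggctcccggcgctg
Ankrd1: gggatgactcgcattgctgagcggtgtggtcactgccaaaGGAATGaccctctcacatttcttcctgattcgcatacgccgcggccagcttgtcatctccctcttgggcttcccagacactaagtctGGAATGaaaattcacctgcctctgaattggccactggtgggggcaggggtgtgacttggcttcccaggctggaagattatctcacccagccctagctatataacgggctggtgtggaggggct
Amotl2: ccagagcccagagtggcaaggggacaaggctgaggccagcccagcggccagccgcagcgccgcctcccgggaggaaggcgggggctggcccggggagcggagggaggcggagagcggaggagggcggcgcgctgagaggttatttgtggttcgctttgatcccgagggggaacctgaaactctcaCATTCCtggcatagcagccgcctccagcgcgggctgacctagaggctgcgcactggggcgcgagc
Counted from the first transcribed base, the motif began at -103 in Cyr61, at -210 and -123 in Ankrd1 and at -65 in Amotl2. It also began at -141 in Yap1 and at base 5 of the transcript from 1 of the 2 Lats2 starts, and these letters were not in the window of Tead2. In Wwtr1 the same site counted at both starts, at -136 from the upstream start and at -170 from the other. Neither the AP-1 motif TGANTCA nor the CArG box bound by serum response factor, each searched on both strands, was found in these windows of the 7 genes, against 7.81% and 1.63% of all promoters. A match is a run of letters in the reference genome, and no binding was measured in this series.

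All arrays of a genotype shared a slide and a scan that held no array of the other, so slide and genotype cannot be told apart in any value below. Between 25370 and 27120 gene probes were well above background on the knockout arrays and between 26490 and 27756 on the wild type arrays. Zscan5b, read by a probe whose place relative to the deletion is unknown, lay between -5.17 and -4.47 in the knockout and between -4.03 and -3.12 in wild type, as log2 signal relative to the 75th percentile of the array, and did not pass the test (limma adjusted p 0.107). Of 15 ES cell marker genes, 15 were well above background on all 6 arrays, Pou5f1, Sox2 and Nanog among them. Markers of the feeder fibroblasts were measured as well: 28 of 29 were tested, all 28 were well above background on all 6 arrays and none was at 0. Their summed level, in multiples of the array's 75th percentile, was 212, 248 and 198 on knockout arrays 1 to 3 and 213, 380 and 318 on wild type arrays 1 to 3. The brightest markers, Sparc and Fn1, weigh most in this sum. Sparc had a mean log2 signal of 6.73 in the knockout and 7.07 in wild type, and Fn1 had 5.83 and 5.79. In RNA from a mixed culture, fewer cells of a type and less RNA per cell cannot be told apart.

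Cyr61, Ankrd1, Amotl2 and Ctgf read higher on average in the knockout, with log2 fold changes from 0.58 to 1.19, while Yap1, Lats2 and the 3 Tead genes stayed within 0.23 of 0 at their brightest probes. All 14 probes were well above background on all 6 arrays, so none entered through 1 genotype only. None of the 14 passed limma's test over 26657 probes (Benjamini-Hochberg threshold 0.05), where 0.469% of all tested probes passed. An unadjusted p below 0.05 was found for 4 of the 14, against 21.9% of all tested probes. The genotypes did not overlap at 5 of the 14 probes, all higher in the knockout, against 29% of all tested probes in either direction and 13.6% in that direction. At the brightest probes of the 10 genes this held for 2, Cyr61 and Amotl2, against 28.9% of the brightest probes of all genes. The rest were dimmer probes of Lats2 and Tead1. At their brightest probes 5 of the 10 genes were higher and 5 lower, with a median log2 fold change of 0.21, beside -0.03 over the brightest probes of all genes. Because the genes were chosen with this contrast in view, nothing is read from these counts.

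**Figure D1:**
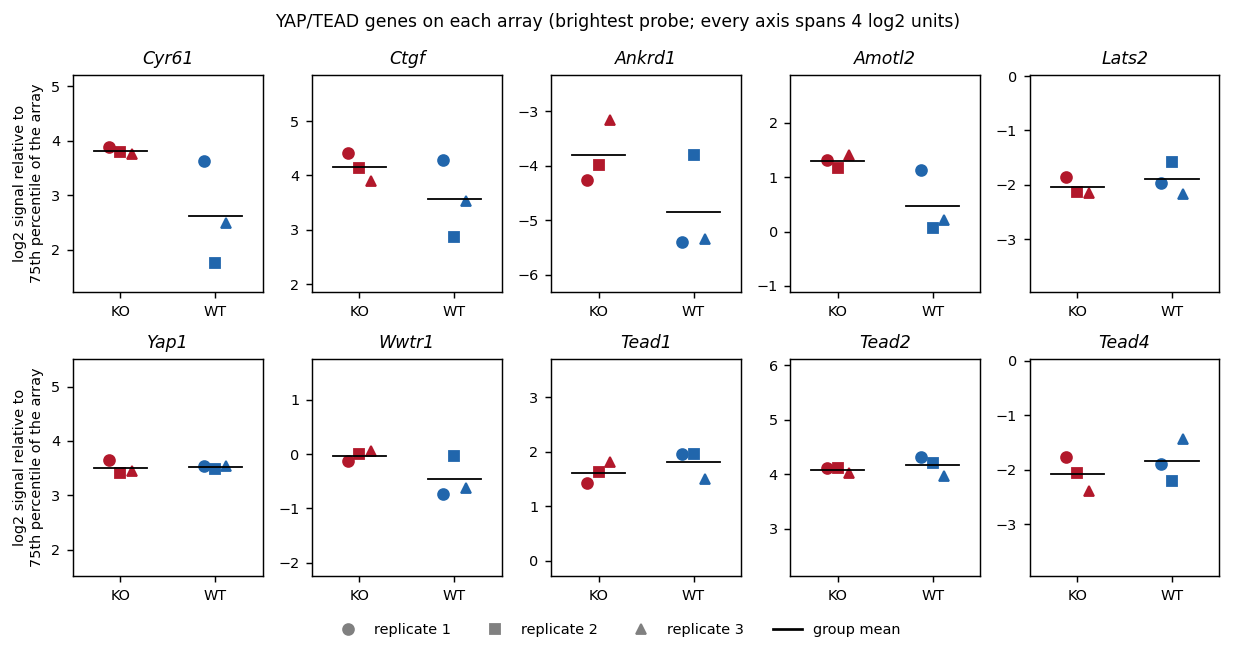
Log2 signal relative to the array's 75th percentile for the brightest probe of each of the 10 genes, knockout (KO, red) left of wild type (WT, blue), with 1 point per array shaped by replicate number and a line at the group mean; every vertical axis spans the same range. Wild type replicate 1 sits near the knockout arrays for Cyr61, Ctgf and Amotl2, and wild type replicate 2 does so for Ankrd1 and Wwtr1.

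The secreted matricellular proteins come first. Cyr61, an integrin-binding protein of the extracellular matrix that supports adhesion and migration, read 3.88, 3.80 and 3.76 on knockout arrays 1 to 3 and 3.62, 1.76 and 2.49 on wild type arrays 1 to 3 (probe A_51_P252859, mm9 chromosome 3, 145310187 to 145310246, log2 signal relative to the 75th percentile). The knockout arrays were nearly alike, wild type replicate 1 lay just below them, and wild type replicates 2 and 3 lay well below, so the genotypes did not overlap. The mean was 3.81 ± 0.06 in the knockout and 2.63 ± 0.94 in wild type (SD, n = 3 each), a log2 fold change of 1.19 ± 0.44 (SE) or 2.28-fold. The log2 fold change became 0.76 when wild type replicate 2 was left out and 1.69 when wild type replicate 1 was.

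Ctgf, a relative of Cyr61 that is also secreted into the matrix and promotes fibrosis, read 4.41, 4.13 and 3.90 in the knockout and 4.28, 2.87 and 3.54 in wild type (probe A_51_P157042, mm9 chromosome 10, 24318281 to 24318340). Here wild type replicate 1 exceeded 2 of the 3 knockout arrays, so the genotypes overlapped, and wild type replicate 2 was again the lowest array. The log2 fold change was 0.58 ± 0.36 (SE, n = 3 per group), with 0.24 without wild type replicate 2 and 0.94 without wild type replicate 1.

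Ankrd1, a nuclear ankyrin repeat protein best known from heart muscle, behaved differently. It read -4.25, -3.99 and -3.15 in the knockout and -5.39, -3.79 and -5.35 in wild type (probe A_52_P120803, mm9 chromosome 19, 36186809 to 36186868). The high wild type array was replicate 2, the one that was lowest for Cyr61 and Ctgf, and it lay within the knockout range. The log2 fold change was 1.05 ± 0.51 (SE, n = 3 per group). It was 1.57 without wild type replicate 2 and 0.45 under normexp background correction, whose added offset of 50 shrinks the folds of dim probes.

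Among the targets that act back on the pathway, Amotl2, an angiomotin family scaffold that binds YAP at cell junctions, read 1.31, 1.16 and 1.41 in the knockout and 1.14, 0.07 and 0.22 in wild type (probe A_51_P348804, mm9 chromosome 9, 102635025 to 102635084). Its arrays fell in the same arrangement as those of Cyr61: wild type replicate 1 came just under the knockout and the other two were clearly lower, without overlap of the genotypes. The mean was 1.29 ± 0.13 in the knockout and 0.48 ± 0.58 in wild type (SD, n = 3 each), a log2 fold change of 0.82 ± 0.29 (SE) or 1.76-fold. Without wild type replicate 1 it was 1.15.

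Lats2, the kinase that phosphorylates YAP and TAZ, did not share that arrangement. Its brightest probe (A_52_P315345, mm9 chromosome 14, 58308807 to 58308866) read -1.85, -2.14 and -2.15 in the knockout and -1.96, -1.58 and -2.16 in wild type, with overlapping genotypes and a difference of -0.15 ± 0.18 log2 units (SE, n = 3 per group). The other probe (A_55_P2002351, mm9 chromosome 14, 58341225 to 58341284) was designed on a different transcript and had a log2 fold change of 0.33 ± 0.14, with all knockout arrays above all wild type arrays, which became 0.14 under normexp background correction. The first starts at base 4823 of NM_015771 and the second at base 645 of NM_153382, and the 2 probes gave opposite signs.

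**Figure D2:**
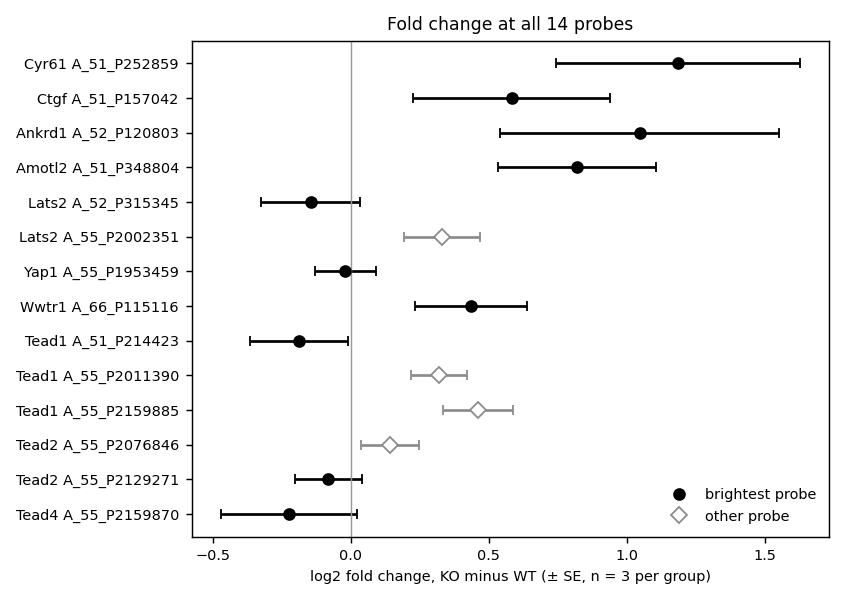
Log2 fold change (knockout minus wild type, bars ± SE, n = 3 per group) at all 14 probes of the 10 genes, with filled circles for each gene's brightest probe and open diamonds for its other probes. Cyr61, Ankrd1, Amotl2 and Ctgf lie farthest right, and the probes of Lats2, Tead1 and Tead2 fall on both sides of 0.

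The coactivators differed from each other. Yap1 read 3.66, 3.40 and 3.45 in the knockout and 3.54, 3.48 and 3.54 in wild type (probe A_55_P1953459, mm9 chromosome 9, 7932025 to 7932084). It was the steadiest of the 10 genes in wild type, with a range of 0.06, and the only probe of the 14 whose wild type range was not wider than its knockout range. The log2 fold change was -0.02 ± 0.11 (SE, n = 3 per group) and became 0.11 under quantile normalization. Wwtr1, which encodes TAZ, read -0.14, -0.01 and 0.06 in the knockout and -0.74, -0.03 and -0.62 in wild type (probe A_66_P115116, mm9 chromosome 3, 57259999 to 57260058). As with Ankrd1, wild type replicate 2 lay among the knockout arrays and the other two below them, and the log2 fold change was 0.44 ± 0.20, or 0.65 without wild type replicate 2.

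The TEAD factors, which place YAP and TAZ on DNA, showed small differences, and for Tead1 and Tead2 the sign depended on the probe. The brightest Tead1 probe (A_51_P214423, mm9 chromosome 7, 120049844 to 120049903) read 1.42, 1.63 and 1.81 in the knockout and 1.96, 1.97 and 1.49 in wild type, with overlap and a knockout minus wild type difference of -0.19 ± 0.18 log2 units (SE, n = 3 per group). At its other probes the log2 fold change was 0.32 ± 0.10 (A_55_P2011390) and 0.46 ± 0.13 (A_55_P2159885), and there every knockout array exceeded every wild type array. Under normexp background correction these became 0.20 and 0.21. The 3 probes start at bases 9486, 1846 and 3087 of the same transcript, NM_001166584, so the brightest is the one nearest its 3′ end.

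Tead2 read 4.11, 4.12 and 4.02 in the knockout and 4.32, 4.20 and 3.97 in wild type at its brightest probe (A_55_P2129271, mm9 chromosome 7, 52488930 to 52488989), a difference of -0.08 ± 0.12 log2 units (SE, n = 3 per group). The other probe, A_55_P2076846, gave 0.14 ± 0.11, and the genotypes overlapped at both. Tead4 read -1.76, -2.05 and -2.39 in the knockout and -1.90, -2.20 and -1.43 in wild type (probe A_55_P2159870, mm9 chromosome 6, 128177161 to 128177220), a log2 fold change of -0.23 ± 0.25. Both genotypes spread over more than the difference between their means.

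The wild type arrays varied more than the knockout arrays at 13 of the 14 probes, against 72.7% of the 26604 tested probes with a value on every array. The wild type range was 15.5 times the knockout range for Cyr61 and 4.28 times for Amotl2, against 2.8 times for Ctgf, 3.6 times for Wwtr1 and 1.44 times for Ankrd1. Over all tested probes the median range was 0.24 in the knockout and 0.41 in wild type, in log2 units.

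The 10 genes were also compared with each other over the arrays. Likeness was measured as the root mean square difference over the 6 arrays between log2 values centred on each probe's own mean, where a smaller value is more alike. Cyr61 and Amotl2 differed by 0.31, Cyr61 and Ctgf by 0.35 and Ctgf and Amotl2 by 0.27, whereas Cyr61 and Ankrd1 differed by 1.08. Of the other 9 genes Wwtr1 was nearest to Ankrd1, at 0.52, but Wwtr1 itself was nearer to Lats2 (0.35), Yap1 (0.36), Tead2 (0.36) and Tead1 (0.38). All arrays are shared between the genes compared, and genes with small changes are alike by this measure for that reason alone, as with Yap1 and Tead2 at 0.14.

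Among 14145 other named genes well above background on all 6 arrays, those most like Cyr61 included Jun (0.15), Egr1 (0.18), Zfp36 (0.19) and Ly86 (0.21), where the median of all candidates was 0.84. Jun is a subunit of the AP-1 transcription factor, Egr1 is a zinc finger transcription factor induced within minutes by growth factors, and Zfp36 binds and destabilises messenger RNAs. Centred log2 Jun was 0.58, 0.85 and 0.59 in the knockout and 0.36, -1.43 and -0.95 in wild type. That of Cyr61 was 0.66, 0.58 and 0.54 in the knockout and 0.41, -1.45 and -0.73 in wild type. Both were lowest on wild type replicate 2 and next lowest on replicate 3. The genes most like Ctgf were Ier2 (0.13), Csrnp1 (0.15), Ppp1r15a (0.16), Pnrc1 (0.17) and Ubald1 (0.17), where the median was 0.57. Ier2 is an immediate early gene, and Ppp1r15a encodes a phosphatase subunit that reverses the translation block of the stress response.

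**Figure D3:**
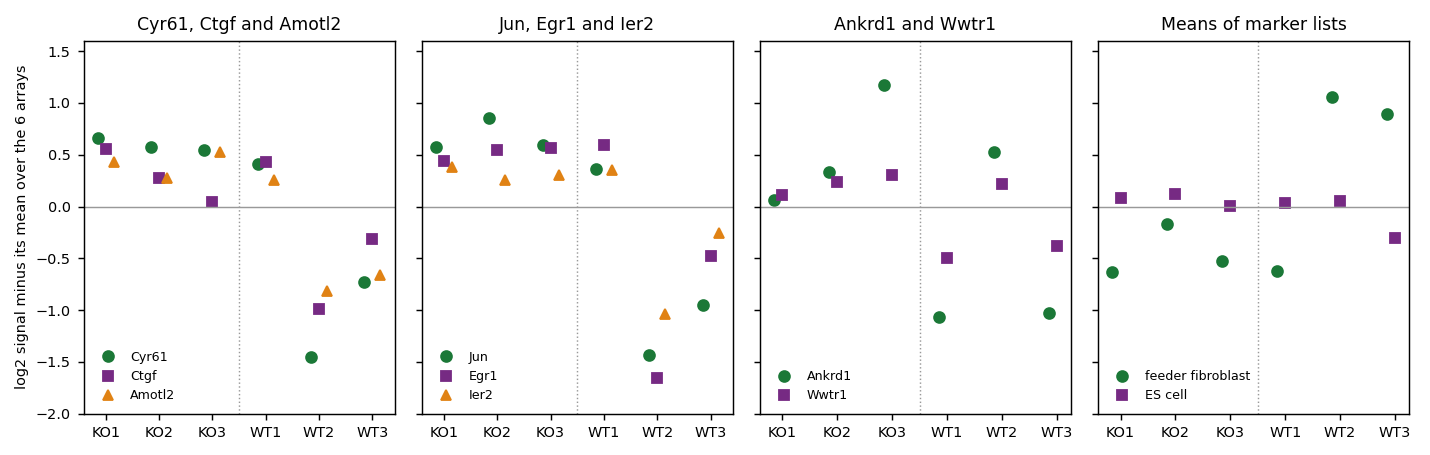
Log2 signal minus its mean over the 6 arrays, on knockout arrays (KO1 to KO3) left of wild type arrays (WT1 to WT3), for Cyr61, Ctgf and Amotl2, for Jun, Egr1 and Ier2, for Ankrd1 and Wwtr1, and for the means of the feeder fibroblast and ES cell marker lists. The first 2 panels are low on WT2 and WT3, where the feeder markers are high (1.05 and 0.90), and Ankrd1 and Wwtr1 are low on WT1 and WT3. Jun, Egr1 and Ier2 were chosen for their likeness to Cyr61 or Ctgf on these arrays, so their shared arrangement follows from that choice.

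Feeder fibroblast markers moved over the same arrays in the opposite sense to Cyr61, Ctgf and Amotl2. Their mean centred log2 signal was -0.63, -0.17 and -0.52 in the knockout and -0.63, 1.05 and 0.90 in wild type, so that the wild type arrays with low Cyr61 were those with high feeder markers, and wild type replicate 1 was near the knockout in Cyr61 and in the mean of the list. Of the 28 markers tested, 0 were higher and 0 were lower by limma, and 7 had p below 0.05 before adjustment, all of them lower. Over the brightest probes of all genes, 0.108% were called higher and 0.401% lower, and 9.62% were higher and 12.1% lower before adjustment. The feeder median log2 fold change was -0.80, with -1.29 without wild type replicate 1 and -0.58 without wild type replicate 2. Serpinh1, a collagen chaperone, was at -0.65 ± 0.13 (SE, n = 3 per group), Vim, an intermediate filament, at -0.74 ± 0.18 and Fstl1 at -0.54 ± 0.16. At these 3 genes wild type replicate 1 was above every knockout array, unlike the average of the list. Without wild type replicate 1, 12 feeder markers passed. In that fit 181 probes were higher and 341 lower over the whole array, against 33 and 92 with no array left out. The omitted array was the wild type array nearest the knockout in the mean of the list, so leaving it out widened the difference. The ES cell markers had a median of 0.22, which was 0.01 without wild type replicate 3, with 0 of 15 called, although 2 were higher and 1 lower at p below 0.05 before adjustment. Pou5f1 was at -0.47 ± 0.10, Nanog at 0.66 ± 0.22 and Klf4 at 0.56 ± 0.22. The part of the feeder cells in the Cyr61, Ctgf and Amotl2 differences was not tested.

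The rest of the Hippo pathway was taken from a list of 29 kinases, adaptors, upstream regulators and TEAD cofactors. The test was run on 24 of them, since Frmd6, Fat4, Vgll1, Vgll2 and Vgll3 were well above background on too few arrays. None was called in either direction, 13 were positive and 11 negative, and the median log2 fold change was 0.01, beside -0.03 over all genes. Before adjustment, 2 higher and 0 lower had p below 0.05, beside the 9.62% and 12.1% of all genes given above. Lats1, the partner kinase of Lats2, read -2.76, -2.94 and -2.74 in the knockout and -3.27, -4.07 and -3.82 in wild type. Every knockout array was above every wild type array, and the log2 fold change was 0.90 ± 0.21 (SE, n = 3 per group), with a limma adjusted p of 0.114. Taok2, a kinase that acts upstream of the cascade, was at 0.37 ± 0.14, and Map4k4, another upstream kinase, at -0.28 ± 0.12 with -0.04 at its other probe. Stk3 and Stk4, the kinases that act on Lats1 and Lats2, were at 0.13 ± 0.13 and 0.07 ± 0.13, and were named after their values were seen.

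Other YAP/TAZ targets were described in the same way. Of 17 further genes of a target signature compiled in human cells, 15 were tested, 0 were called higher and 0 lower, 5 were positive and 10 negative, and the median log2 fold change was -0.22. That median was -0.38 without wild type replicate 1 and -0.06 without wild type replicate 3. Before adjustment, p was below 0.05 for 3 of the 15, all lower, where 12.1% of the brightest probes of all genes were lower at that threshold. The mean centred log2 signal of the list was -0.23, -0.15 and -0.13 in the knockout and -0.20, 0.33 and 0.38 in wild type, so it was highest on the wild type arrays where the feeder markers were highest, and their part in it was not tested. Nt5e, the cell surface enzyme that makes adenosine, read -4.04, -4.50 and -4.38 in the knockout and -3.32, -2.88 and -3.25 in wild type, below every wild type array, a difference of -1.15 ± 0.18 log2 units (SE, n = 3 per group, limma adjusted p 0.0611). Fjx1 was at -0.52 ± 0.19, and Rbms3, an RNA-binding protein, at -1.32 ± 0.50 with -0.98 at its other tested probe. That other probe was well above background on only 1 knockout array and 2 wild type arrays. Of the remaining CCN genes, the family of Cyr61 and Ctgf, Wisp1 (-1.17 ± 0.38) and Wisp2 (-1.21 ± 0.96) were tested and neither was called, and Nov and Wisp3 were well above background on too few arrays.

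**Figure D4:**
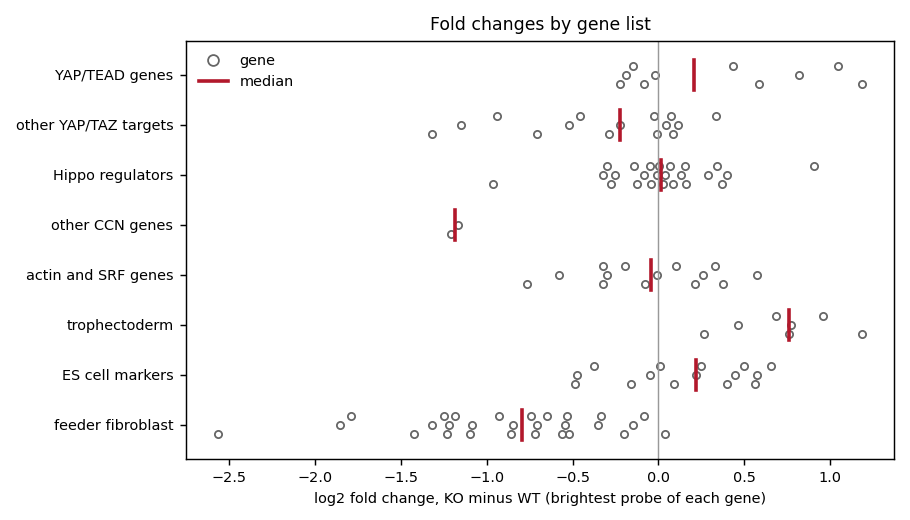
Log2 fold change (knockout minus wild type) of the brightest tested probe of each gene, grouped by list, with a red bar at each median. The YAP/TEAD genes spread from -0.23 to 1.19, the other YAP/TAZ targets have a median of -0.22 and the feeder fibroblast markers one of -0.80.

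Actin cytoskeleton genes driven by serum response factor, a factor that also activates Cyr61 and Ctgf, had a median log2 fold change of -0.04. All 14 were tested and 0 were called, where 0.108% of the brightest probes of all genes were called higher and 0.401% lower. At an unadjusted p below 0.05, 1 was higher and 3 were lower, beside 9.62% and 12.1% of all genes. Tpm1, a tropomyosin, was at 0.58 ± 0.17 (SE, n = 3 per group), though its other 5 probes ran from -0.16 to 0.58, Myl9, a myosin light chain, was at -0.77 ± 0.23 and Flna, an actin crosslinker, at -0.32 ± 0.12. Srf itself, chosen after its values were seen, read 1.64, 1.44 and 1.40 in the knockout and 2.02, 0.48 and 1.19 in wild type, and wild type replicate 2 was its lowest array.

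Trophectoderm genes, the lineage that needs Tead4, were positive in 7 of the 7 tested, with a median log2 fold change of 0.76, although Tead4 itself was at -0.23. The lineage factors Cdx2, Elf5 and Hand1 were not well above background on enough arrays to be tested. Id2, an inhibitor of helix-loop-helix factors that ES cells also express, was the 1 gene called: it read 0.64, 0.43 and 0.48 in the knockout and -0.41, -0.48 and -0.44 in wild type, and rose by 0.96 ± 0.10 log2 units (SE, n = 3 arrays each, limma adjusted p 0.0373). The call was lost with normexp background correction, with the replicate block and under other settings. Krt8 and Krt18, keratins of simple epithelia, were at 1.18 ± 0.27 and 0.69 ± 0.19 with every knockout array above every wild type array, and were not called. Before adjustment, p was below 0.05 for 5 of the 7, all higher. Over the brightest probes of all genes, 9.62% were higher at that threshold and 0.108% were called higher, with a median log2 fold change of -0.03.

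The size of the target differences moved with single arrays, most of all with wild type replicates 1 and 2. Leaving out 1 array at a time, the log2 fold change of Cyr61 ran from 0.76 to 1.69, that of Ctgf from 0.24 to 0.94, that of Ankrd1 from 0.72 to 1.57 and that of Amotl2 from 0.62 to 1.15, and none of these changed sign. Without wild type replicate 1, Cyr61 and Amotl2 passed limma's test over all probes, and without wild type replicate 2, Ankrd1 and Wwtr1 passed it. The whole array also moved in those fits, with 181 probes higher and 341 lower without wild type replicate 1, and 1436 higher and 1075 lower without wild type replicate 2, against 33 and 92 with all 6 arrays. No member passed when wild type replicate 3 or any knockout array was left out, where 0 probes passed on the whole array.

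**Figure D5:**
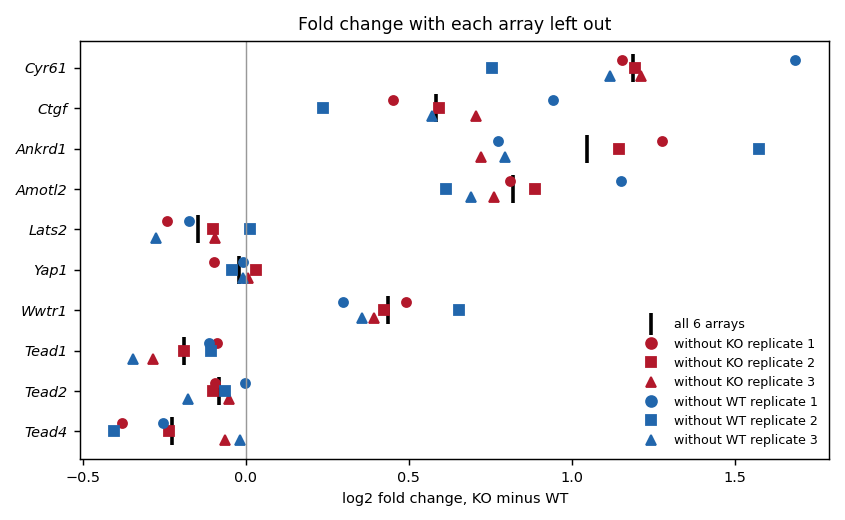
Log2 fold change (knockout minus wild type) of the brightest probe of each gene with all 6 arrays (black bar) and with each array left out in turn (red for a knockout array, blue for a wild type array, shaped by replicate number). Cyr61, Ctgf and Amotl2 reach their highest value without wild type replicate 1, and Ankrd1 and Wwtr1 without wild type replicate 2.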

How the data were processed

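Total RNA from 3 knockout and 3 wild type cultures was read on 1-colour Agilent arrays, 1 array each. The deposited scanner files give each spot's intensity on a linear scale. Feature Extraction was version 10.7.3.1 per the file headers, with spatial and multiplicative detrending and surrogates switched on, but 10.3.1.1 in the processing notes of the submitters. The authors' deposited series table holds log2 values centred per probe, and its column scaling is unknown. As an alternative it was set against the centred scanner values, with column medians from -0.07 to 0.03 and r across probes from 0.984 to 0.995.

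Control spots and outlier spots were left out, log2 processed signals were averaged over a probe's spots, and arrays were scaled by subtracting their 75th percentile. No gene spot was saturated. Probes well above background on at least 3 of 6 arrays were tested (26657 of 39429) in limma 3.58.1 (lmFit, eBayes; R 4.3.3), two-sided, Benjamini-Hochberg adjusted, threshold 0.05. Fold changes are knockout minus wild type. Other genes are represented by their brightest tested probe. The fit was checked on simulated data in which both genotypes had the same spread. That check does not cover the wider wild type spread of these arrays.

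The members and the gene lists were chosen with earlier results of these data known. Named from each list were the 3 genes with the smallest p and any gene that passed, and as most like Cyr61 and Ctgf the 5 nearest by root mean square difference, of which 1 is not reported here. Probe positions are on mm9, as in the files, and gene names were updated through RefSeq. With 3 arrays per group, their number limits the precision. The alternatives were other background correction, normalization, filters and variance models, the authors' table, a replicate block and leaving out each array.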

Additional observations from a re-analysis of the deposited data

How the results depend on the processing

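The signs of the Cyr61, Ctgf, Ankrd1, Amotl2 and Wwtr1 fold changes held in all 15 alternatives, with log2 fold changes from 0.76 to 1.69 for Cyr61, 0.24 to 0.94 for Ctgf, 0.45 to 1.57 for Ankrd1, 0.62 to 1.15 for Amotl2 and 0.30 to 0.65 for Wwtr1. Signs changed only at brightest probes close to 0. Lats2 ran from -0.277 to 0.014 with 1 array left out and was at 0.092 with the mean over its probes. Yap1 ran from -0.097 to 0.031 with 1 array left out (0.007 without knockout replicate 3) and was at 0.107 under quantile normalization. Tead2 was at 0.032 under quantile normalization and 0.029 with the mean over its probes, and Tead1 at 0.197 with the mean over its probes. The median of the actin genes ran from -0.176 to 0.052 with 1 array left out.

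Over the whole array, 0 probes were called higher and 0 lower when normexp was used, when no detection filter was set, with detection on all 6 arrays, with a trended and robust variance prior and with a replicate block, where the main values were 33 and 92. A shift to the median gave 54 higher and 178 lower, array weights 426 and 404, and quantile normalization 50 higher, and leaving out 1 array gave 0 to 1436 higher and 0 to 1075 lower. Leaving out 1 array, the counts called were 0 to 2 for the member probes, Hippo regulators, actin genes, trophectoderm genes and ES cell markers, 0 to 3 for the other targets, 0 to 1 for the CCN genes and 0 to 12 for the feeder markers. Of the other targets 1 was called under a shift to the median and 1 with array weights, as was 1 actin gene with array weights. The trophectoderm call of Id2 was lost, leaving 0, under normexp, without a filter, with detection on all 6 arrays, with the trended prior and with the replicate block. The cause of these changes was not tested. The offset of normexp shrinks dim probes by construction, but that setting also used other input signals, and the part of each was not tested. Whether equal replicate numbers mark paired samples is not given in the labels. Deviations of same-numbered arrays correlated at 0.16, 0.23 and -0.14 across probes, against -0.32 to 0.21 for differently numbered arrays. So few correlations cannot settle the pairing. Ankrd1, the dimmer Lats2 probe and the 2 dimmer Tead1 probes had low signals, for Ankrd1 down to 53.9 intensity units in the knockout and 20.3 in wild type, which limits their precision.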

Other observations

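Several genes outside the 10 had the arrangement of the feeder markers, high on wild type replicates 2 and 3, and they were picked here after their values were seen. Axl, a receptor tyrosine kinase and YAP/TAZ target in human cells, read -1.59, -1.09 and -1.22 in the knockout and -1.62, 0.01 and -0.15 in wild type, as log2 signal relative to the 75th percentile. Ccdc80, a matrix protein of the same signature, read -3.29, -2.91 and -3.25 in the knockout and -3.64, -1.24 and -1.75 in wild type. Wisp2, a CCN relative of Cyr61, read -4.60, -3.85 and -4.50 in the knockout and -5.17, -1.13 and -3.02 in wild type, and wild type replicate 2, the lowest array for Cyr61, was its highest. Dchs1, a protocadherin upstream of Hippo signalling, read -4.09, -3.94 and -3.88 in the knockout and -4.15, -2.68 and -2.17 in wild type. On wild type replicate 1 each of these 4 genes read below the lowest knockout array. Some genes of 1 target signature therefore sat in opposite arrangements on wild type replicates 2 and 3. Cyr61, Ctgf and Amotl2 were low there, and Axl and Ccdc80 were high. Other genes of the signature had neither arrangement. Ankrd1 was low on wild type replicates 1 and 3. F3 read -0.19, -0.02 and 0.06 in the knockout and 0.11, -0.09 and -0.10 in wild type.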
